A study of Saccharomyces cerevisiae with 10 samples.

Results

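The hexose transporter genes described here are HXT1 to HXT8, HXT10 and GAL2 of budding yeast. They were chosen by their systematic names, and all 10 were found among the 7126 transcripts measured apart from spike-in RNAs. All 10 were also among the 6390 genes tested, but HXT10 reached the filter's level of 0.391 CPM (counts-per-million, a count scaled by library size) in the [ESI+] libraries alone. RNA-seq was made from BY4743 diploids, grown in YPD, a rich glucose medium, to mid-logarithmic phase, with 2 libraries in each of 5 groups. The groups were naive diploids, diploids carrying [ESI+], and homozygous deletions of HOS2 (hos2Δ), SET3 (set3Δ) and SNT1 (snt1Δ). [ESI+] is a heritable, prion-like state, and Hos2, Set3 and Snt1 belong to Set3C, a histone deacetylase complex of which Hos2 is a catalytic subunit. No added agent or further allele is given for any group, and the labels do not say how many independent isolates stand behind a group or whether replicates came from separate cultures.

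Hexose transporters are permeases of the plasma membrane that let glucose and related sugars diffuse into the cell, and yeast keeps many that differ in affinity. Hxt1 and Hxt3 are low-affinity carriers used when glucose is plentiful, Hxt2 and Hxt4 serve at lower glucose, and Hxt6 and Hxt7 are high-affinity carriers whose genes are repressed by high glucose. The repressor Rgt1, released from promoters by signals from the glucose sensors Snf3 and Rgt2, and the repressor Mig1 set which of the genes are transcribed. Hxt5 is a carrier of slow growth, Gal2 is the galactose permease induced by Gal4, and HXT8 and HXT10 are little expressed in laboratory growth.

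Of the genes, 6 lie in 2 clusters on build R64, all on the minus strand. HXT7 (YDR342C, chromosome IV, 1154216 to 1155928), HXT6 (YDR343C, 1159608 to 1161320) and HXT3 (YDR345C, 1162957 to 1164660) follow each other on chromosome IV. HXT4 (YHR092C, chromosome VIII, 287081 to 288811), HXT1 (YHR094C, 290913 to 292625) and HXT5 (YHR096C, 294669 to 296447) follow each other on chromosome VIII. The other 4 are on the plus strand and stand alone, HXT2 (YMR011W) at chromosome XIII, 288079 to 289704, HXT8 (YJL214W) at chromosome X, 26887 to 28596, HXT10 (YFL011W) at chromosome VI, 112345 to 113985, and GAL2 (YLR081W) at chromosome XII, 290212 to 291936. All positions are those of the coding sequence.

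HXT6 and HXT7 are near-identical copies, and this sets how their counts can be read. Their coding sequences have 1713 bases each and differ at 3 of them (identity 99.82%), while the other 44 pairs of the 10 genes are between 61.7% and 81.9% identical. The differences all lie within 82 bases of the end, at positions 1632 to 1677 counted from the A of the start codon. Below are the last 90 coding bases of both genes, 5′ to 3′ on the coding strand from the RefSeq R64 genome, with the differing bases in capitals.
HXT6, chrIV:1159608-1159697: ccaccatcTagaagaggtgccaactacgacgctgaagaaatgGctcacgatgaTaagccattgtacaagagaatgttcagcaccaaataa
HXT7, chrIV:1154216-1154305: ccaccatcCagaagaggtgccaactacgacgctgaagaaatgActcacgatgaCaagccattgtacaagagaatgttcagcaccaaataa
A fragment that covers none of these capitals fits both genes equally, so the split of counts between them is uncertain and their sum is given beside each. HXT6 took at most 13.1% of the pair's counts in any library. Estimated counts that are not whole, by over 0.01, show reads shared with other transcripts, and were found for HXT1, HXT4, HXT5 and HXT6 in 10 of 10 libraries, HXT3 in 9, HXT7 in 8 and HXT2 in 1. Those of HXT8, HXT10 and GAL2 were whole in all.

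Each deleted gene was nearly absent from its own libraries, with 3 and 0 counts of HOS2 in hos2Δ, 2 and 0 of SET3 in set3Δ, and 1 and 4 of SNT1 in snt1Δ. Library totals ran from 8327735 to 80651761 expected counts (both in set3Δ), spike-in RNAs took 0.946% to 5.19% and ribosomal RNA 8.62% to 28.0%. The 8 haploid cell type genes looked at, which a/alpha diploids repress, were at 0 to 9.87 CPM in every library. At nuclear genes with almost no reads in the other groups (under 0.2 CPM per kb, here called silent), the median level was 0.302 CPM per kb in [ESI+] library 1, 1.43 in library 2 and 0 to 0.0882 in the other 8 libraries.

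In naive diploids HXT3 and HXT7 were the most abundant transcripts of the set, at 778 ± 45.3 and 578 ± 67.6 TPM (transcripts-per-million, a level per length; SD, n = 2). HXT4 followed at 199.9 ± 33.2 TPM and HXT2 at 149 ± 27.0 TPM, each separate from its neighbours in both libraries. HXT1 (66.9 ± 1.13 TPM) and HXT6 (57.6 ± 30.9 TPM) overlapped. HXT5 stood far below at 2.81 ± 0.820 TPM, GAL2 (0.913 ± 0.183 TPM) and HXT8 (0.898 ± 0.267 TPM) overlapped, and HXT10 was lowest at 0.110 ± 0.0744 TPM. The order therefore set one low-affinity and one high-affinity carrier at the top, with the low-affinity Hxt1 well below both.

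The order differed in the other groups. HXT3 stayed first by mean in all 5 groups, although its libraries overlapped those of HXT7 in snt1Δ (368 ± 34.0 against 274 ± 127 TPM). In hos2Δ HXT2 was second at 128 ± 21.1 TPM, and HXT7 (50.2 ± 13.4 TPM) overlapped HXT1 (45.2 ± 2.66 TPM). In set3Δ HXT2 (126 ± 64.1 TPM) and HXT7 (109 ± 23.6 TPM) overlapped. In [ESI+] the first and second places were those of naive cells, HXT3 at 897 ± 1.22 TPM and HXT7 at 383 ± 111 TPM.

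**Figure D1:**
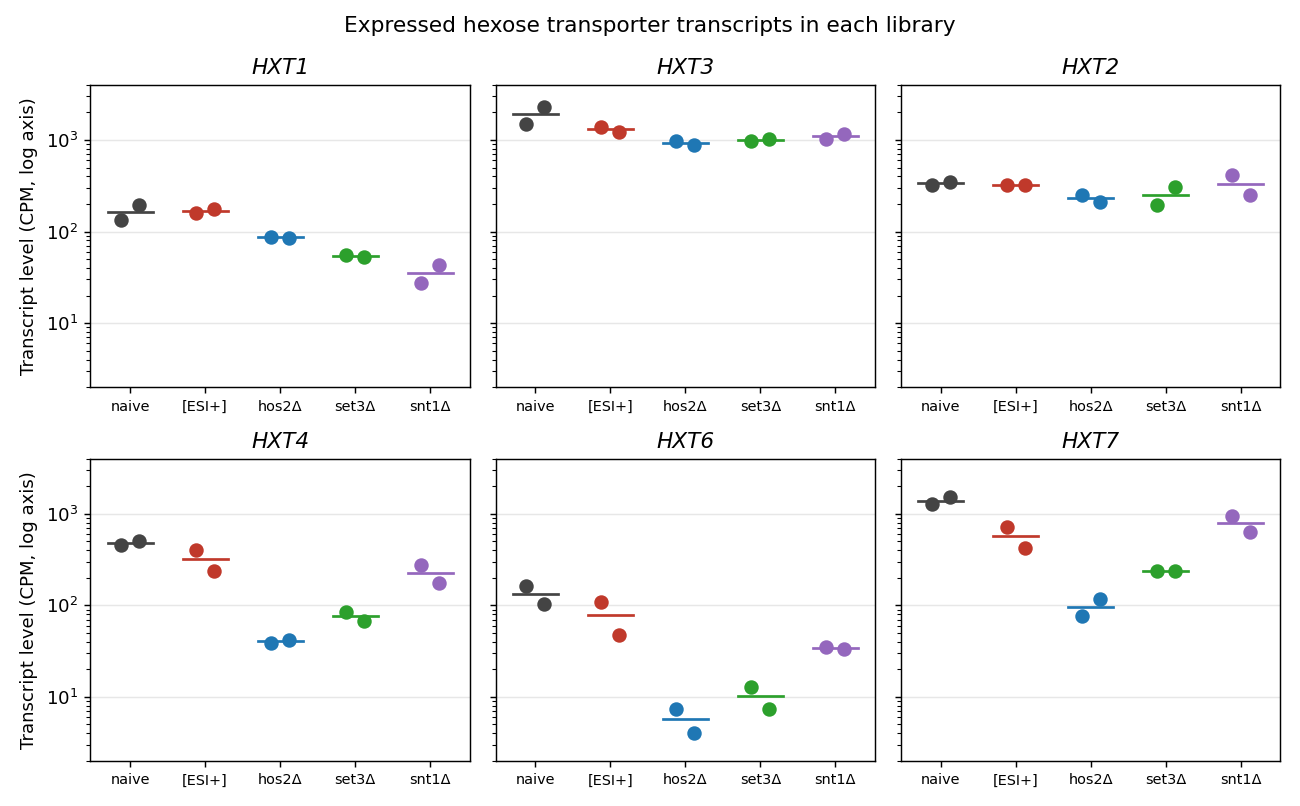
Transcript level of the 6 expressed hexose transporter genes in each library, in CPM on a log axis, with 1 point per library and a bar at each group's mean (n = 2). HXT4, HXT6 and HXT7 are lowest in hos2Δ and set3Δ, while HXT1 is lowest in snt1Δ at 27.4 and 43.0 CPM.

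Loss of Hos2 went with lower transcripts of HXT4 and of the high-affinity carriers HXT6 and HXT7. HXT7 was at 1269 and 1516 CPM in naive libraries 1 and 2 and at 76.2 and 117 CPM in the hos2Δ libraries. HXT6 was at 161 and 102 CPM in naive and at 7.43 and 4.04 CPM in hos2Δ. HXT4 was at 458 and 510.2 CPM in naive and at 39.0 and 41.6 CPM in hos2Δ. In all 3 genes both deletion libraries lay far below both naive libraries. HXT7 fell by 3.85 ± 0.36 (log2, SE, adjusted p = 0.000192 in the quasi-likelihood test of edgeR, Benjamini-Hochberg adjusted, as for all adjusted p-values here). HXT6 fell by 4.49 ± 0.50 (adjusted p = 0.00184), and the pair's summed counts fell by 3.90 ± 0.36 (14.9-fold, adjusted p = 0.000148). HXT4 fell by 3.59 ± 0.33 (adjusted p = 0.000179). In RNA from whole cultures, fewer cells making a transcript and less of it per cell cannot be told apart.

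The low-affinity carriers fell less in hos2Δ. HXT3 was at 1504 and 2303 CPM in naive and at 972 and 890.4 CPM in hos2Δ, groups that did not overlap, and fell by 1.03 ± 0.27 (adjusted p = 0.0395). HXT1 was at 134 and 193 CPM in naive and at 88.1 and 84.7 CPM in hos2Δ, also without overlap, and fell by 0.92 ± 0.25 (adjusted p = 0.0485). HXT3 is the next transporter gene after HXT6 on chromosome IV, and HXT1 the next after HXT4 on chromosome VIII, so the fitted fold changes were unequal within each cluster. HXT2 (-0.54 ± 0.29, adjusted p = 0.276) and HXT5 (-0.82 ± 0.30, adjusted p = 0.122) did not pass. HXT8 (0.16 ± 0.46, adjusted p = 0.874) and GAL2 (-0.24 ± 0.40, adjusted p = 0.759) did not pass either, and HXT10 had 11 and 1 counts against 9 and 2.

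In all, 5 of the 10 genes were lower and 0 higher in hos2Δ, against 4.69% of all genes tested called lower and 2.96% called higher. The median log2 fold change was -0.98 over the 10 genes and 0.03 over all genes. The calls of HXT4, HXT6 and HXT7 held in each of the 4 fits without 1 library, and those of HXT1 and HXT3 were lost in 3 of the 4. HXT1 also missed the threshold with DESeq2's size factors in edgeR (adjusted p = 0.0505) and after subtraction of the silent level (adjusted p = 0.0510). HXT3 missed it when only the naive and hos2Δ libraries were fitted (adjusted p = 0.0648) and with a length trend removed (adjusted p = 0.0526). With library sizes from the spike-ins the fold changes were -3.33 for HXT4 (adjusted p = 0.667), -4.38 for HXT6 (adjusted p = 0.0987) and -3.61 for HXT7 (adjusted p = 0.286), beside a median of 0.25 over all genes. In that fit 0 of the 10 passed, where only 5 of all 6390 genes did.

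The set3Δ libraries showed the same 3 carriers low. HXT7 was at 239 and 238 CPM, HXT6 at 12.9 and 7.37 CPM and HXT4 at 84.9 and 67.4 CPM, all below both naive libraries. HXT7 fell by 2.55 ± 0.34 (adjusted p = 0.00349), HXT6 fell by 3.66 ± 0.48 (adjusted p = 0.00742) and the summed pair fell by 2.62 ± 0.34 (6.13-fold, adjusted p = 0.00255). HXT4 fell by 2.67 ± 0.32 (adjusted p = 0.00148). HXT1 was at 55.2 and 53.2 CPM, below both naive libraries, and fell by 1.59 ± 0.26 (adjusted p = 0.0109).

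HXT3, at 964 and 1030.4 CPM in set3Δ, did not pass (-0.93 ± 0.27, adjusted p = 0.0937), although both its libraries lay below those of naive. HXT2 (-0.41 ± 0.29, adjusted p = 0.500), HXT5 (-0.82 ± 0.31, adjusted p = 0.187), HXT8 (0.23 ± 0.47, adjusted p = 0.841) and GAL2 (-0.25 ± 0.40, adjusted p = 0.799) did not pass, and HXT10 had 9 and 2 counts. So 4 of the 10 were lower and 0 higher, against 1.92% of all genes called lower and 0.579% called higher, with a median of -0.87 beside 0.0038 over all genes. All 4 calls were lost without either set3Δ library (adjusted p 0.0559 to 0.167), with fold changes of -2.55 and -2.54 for HXT7, -2.85 and -2.51 for HXT4, -4.17 and -3.35 for HXT6 and -1.62 and -1.56 for HXT1 without replicates 1 and 2. They were also lost when scaled by the spike-ins (-2.97, -3.15, -4.43 and -1.95 in the same order, beside a median over all genes of -0.50), where only 3 of all 6390 genes passed. Without naive replicate 2 the HXT1 call was lost as well, with a fold change of -1.31.

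Loss of Snt1 was marked at HXT1, the low-affinity carrier of high glucose. HXT1 was at 27.4 and 43.0 CPM in snt1Δ, below every library of the other 4 groups, and fell by 2.22 ± 0.27 against naive (4.65-fold, adjusted p = 0.00262). HXT7 was at 952 and 631 CPM, below both naive libraries, with a log2 fold change of -0.82 ± 0.32 that did not pass (adjusted p = 0.494). HXT6, at 35.5 and 33.0 CPM, had -1.94 ± 0.45 (adjusted p = 0.158), and the summed pair had -0.89 ± 0.32 (adjusted p = 0.433). HXT4, at 274 and 174 CPM, had -1.11 ± 0.30 (adjusted p = 0.201). The libraries of these 3 genes did not overlap those of naive, yet the differences missed the threshold over all genes.

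HXT3 (-0.80 ± 0.27, adjusted p = 0.376), HXT5 (-0.75 ± 0.30, adjusted p = 0.498), HXT8 (0.25 ± 0.47, adjusted p = 0.894) and GAL2 (-0.13 ± 0.41, adjusted p = 0.948) did not pass in snt1Δ. HXT2, at 414 and 253 CPM against 321 and 349 CPM in naive, overlapped the naive libraries (-0.0085 ± 0.29, adjusted p = 0.995), and HXT10 had 1 and 1 counts. Thus 1 of the 10 was lower and 0 higher, against 0.391% of all genes called lower and 0.0626% called higher, with a median of -0.81 beside -0.0044 over all genes. The HXT1 call held in each of the 4 fits without 1 library and was lost when only the naive and snt1Δ libraries were fitted (adjusted p = 0.0656) and with spike-in library sizes (median of all genes -0.66). Fitting only the naive and snt1Δ libraries called 6 of 6074 genes, and spike-in library sizes called 3 of 6390. DESeq2 and the fit with the replicate number as a block each called 3 of the 10, where 99 and 59 of 6390 genes passed.

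**Figure D2:**
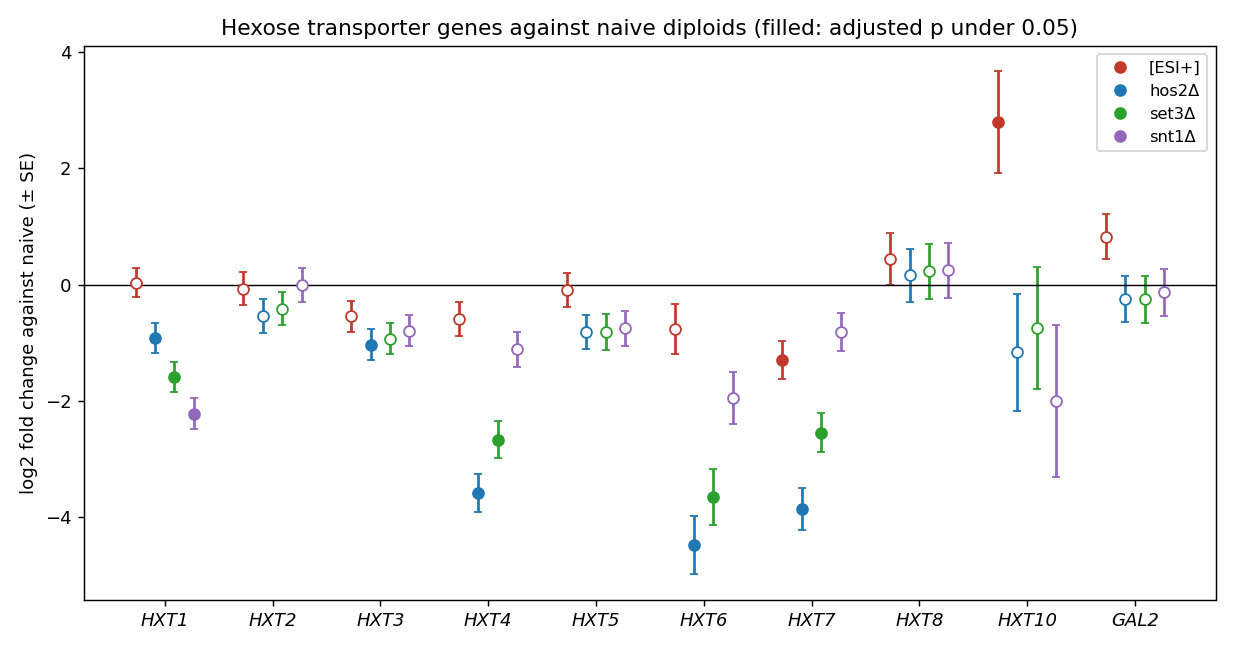
Log2 fold change of each hexose transporter gene against naive, with its SE, for [ESI+] and the 3 deletions (2 libraries against 2). Filled points have an adjusted p under 0.05, and those of HXT4, HXT6 and HXT7 in hos2Δ lie between -3.59 and -4.49, while HXT10 rests on few counts in every group but [ESI+].

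The deletions were also compared directly, which leaves the naive libraries out of the difference. HXT1 was higher in hos2Δ than in snt1Δ by 1.30 ± 0.26 (adjusted p = 0.0327). HXT4 (-2.48 ± 0.31, adjusted p = 0.00414), HXT6 (-2.54 ± 0.46, adjusted p = 0.0327) and HXT7 (-3.04 ± 0.35, adjusted p = 0.00198) were lower in hos2Δ, and so was the summed pair (-3.02 ± 0.34, adjusted p = 0.00194). These 2 deletions therefore differed in opposite directions at HXT1 and at HXT4, HXT6 and HXT7. HXT3, also low-affinity, was not called (means of 931 CPM in hos2Δ and 1096 CPM in snt1Δ), and a split by affinity was not tested. HXT2 was not called either (230 and 333 CPM). The counts were 1 higher and 3 lower of the 10, against 0.939% and 2.22% of all genes. The calls fell to 0 when only these 4 libraries were fitted, with fold changes of 1.295, -2.47, -2.55 and -3.04 for HXT1, HXT4, HXT6 and HXT7, to 0 without hos2Δ replicate 1 (1.27, -2.43, -3.08 and -2.76) and to 1, HXT7, without hos2Δ replicate 2. Without snt1Δ replicate 1 or 2 only HXT6 of the 4 was lost (adjusted p = 0.0843 and 0.164). With spike-in library sizes the calls also fell to 0 (2.25, -1.66, -1.62 and -2.27, beside a median of all genes of 0.94), where only 5 of all 6390 genes passed. When only these 4 libraries were fitted 1 of 6095 genes did.

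By group mean, levels of these 4 genes in set3Δ lay between those of hos2Δ and snt1Δ. Against hos2Δ, HXT7 differed by -1.31 ± 0.33, HXT4 by -0.92 ± 0.30, HXT6 by -0.83 ± 0.45 and HXT1 by 0.67 ± 0.25 (hos2Δ minus set3Δ, adjusted p = 1.0 each). The summed pair of HXT6 and HXT7 differed by -1.285 ± 0.32 (adjusted p = 1.0). The libraries of these genes did not overlap except at HXT6. Of the 10 genes 0 were called in edgeR, where 0.0313% of all genes were, 3 had an unadjusted p under 0.05, and DESeq2 called 1. Against snt1Δ, HXT4 differed by -1.55 ± 0.30 and HXT7 by -1.73 ± 0.33 (set3Δ minus snt1Δ, adjusted p = 0.0666 each). HXT6 differed by -1.72 ± 0.45 (adjusted p = 0.159), the summed pair by -1.73 ± 0.33 (adjusted p = 0.0628) and HXT1 by 0.62 ± 0.26 (adjusted p = 0.275). Here too edgeR called 0 of the 10, with 0.188% of all genes called, 4 had an unadjusted p under 0.05, and DESeq2 called 3.

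The make-up of the transporter transcripts, as shares of the 10 genes' summed TPM, does not depend on library scaling. HXT6 and HXT7 together made up 36.8% and 32.3% in naive libraries 1 and 2, 5.72% and 8.79% in hos2Δ, 16.0% and 14.2% in set3Δ, 35.8% and 28.4% in snt1Δ and 26.3% and 18.9% in [ESI+]. The naive and snt1Δ ranges overlapped, and those of the other 3 groups lay below both and apart from each other. HXT4 held 10.9% ± 1.14 in naive, 2.82% ± 0.252 in hos2Δ and 4.58% ± 1.05 in set3Δ (SD, n = 2). HXT3 held 42.6% ± 5.11 in naive, 66.1% ± 1.12 in hos2Δ and 60.6% ± 1.32 in set3Δ. A larger share of a smaller sum is no rise, and HXT3's own level fell in hos2Δ. The summed level of the 10 genes was 4423 ± 797 CPM in naive, 2775 ± 467 in [ESI+], 1398 ± 61.1 in hos2Δ, 1637 ± 109 in set3Δ and 2523 ± 296 in snt1Δ. The summed TPM was 1834 ± 114 in naive, 1905 ± 156 in [ESI+], 742 ± 56.2 in hos2Δ, 763 ± 216 in set3Δ and 868 ± 263 in snt1Δ. So [ESI+] lay below naive in CPM but not in TPM, and the 3 deletions lay below naive in both. Between a pair of groups, 2 libraries against 2 allow no exact permutation p under 0.05, and no test was run on these shares.

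**Figure D3:**
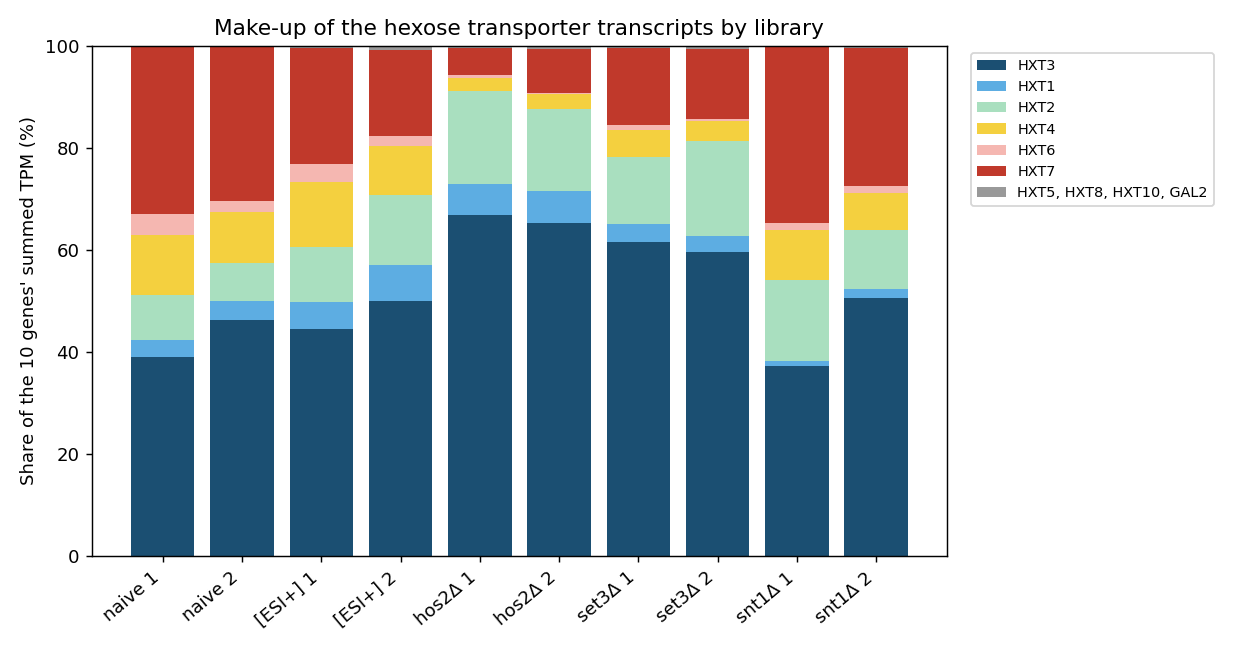
Share of each gene in the summed TPM of the 10 hexose transporter genes, in percent, with 1 stacked bar per library. HXT7 and HXT6, at the top of the bars, take 5.72% and 8.79% in hos2Δ against 36.8% and 32.3% in naive.

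In [ESI+] diploids HXT7 was lower than in naive. It was at 715 and 418 CPM, below both naive libraries, and fell by 1.30 ± 0.33 (2.46-fold, adjusted p = 0.0143), and the summed pair fell by 1.24 ± 0.32 (adjusted p = 0.0160). HXT6, at 108 and 47.4 CPM, overlapped naive and did not pass (-0.76 ± 0.43, adjusted p = 0.206). HXT4, at 405 and 237 CPM (-0.59 ± 0.30, adjusted p = 0.150), and HXT3, at 1385 and 1226 CPM (-0.54 ± 0.27, adjusted p = 0.140), lay below both naive libraries and did not pass. HXT1, at 161 and 175 CPM, lay within the naive range (0.04 ± 0.25, adjusted p = 0.927). These placings depended on the unit. In TPM, HXT1 was at 103 and 127 in [ESI+] against 66.1 and 67.7 in naive. HXT3 was at 898 and 896 TPM against 746 and 810 TPM, so both genes lay above naive there. HXT7, at 461 and 304 TPM against 626 and 530 TPM, stayed below naive, and HXT4 overlapped naive. HXT2 (-0.07 ± 0.29, adjusted p = 0.881), HXT5 (-0.09 ± 0.29, adjusted p = 0.837), HXT8 (0.44 ± 0.45, adjusted p = 0.485) and GAL2 (0.83 ± 0.39, adjusted p = 0.124) did not pass.

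HXT10 had 9 and 2 counts in naive (0.314 and 0.156 CPM) and 38 and 260 counts in [ESI+] (0.571 and 2.95 CPM). Silent genes of its length had 0.495 and 2.35 CPM in the same [ESI+] libraries, values close to its own. After subtraction of that level HXT10 no longer reached the filter. Since it had reached the filter through the [ESI+] libraries alone, its call as higher in edgeR (the filled point in the plot of fold changes) is not taken as a difference here. For HXT8, at 1.94 and 3.80 CPM in [ESI+], the silent level was 0.516 and 2.44 CPM, and for GAL2, at 2.82 and 4.93 CPM, it was 0.521 and 2.47 CPM.

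With HXT10 counted, 1 of the 10 genes was called higher and 1 lower, against 13.9% and 14.5% of all genes, shares close to that background. The median was -0.08 over the 10 and 0.09 over all genes. Leaving out naive replicate 2 (adjusted p = 0.0891) or [ESI+] replicate 2 (adjusted p = 0.159) ended the HXT7 call. Scaled by the spike-ins, the log2 fold change of HXT7 was -0.28 (adjusted p = 0.924), the median over all genes was 0.80 and 0 of the 10 passed, where 32 of all 6390 genes did.

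**Figure D4:**
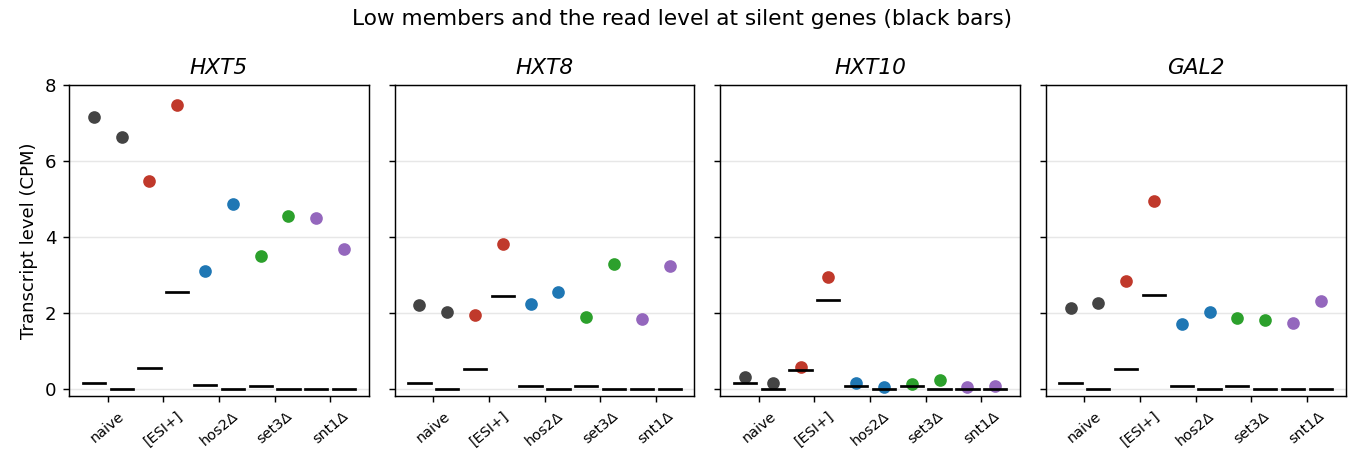
Level of the 4 low hexose transporter genes in each library, in CPM, with 1 point per library. Black bars give the median level of silent genes at each gene's length, which in [ESI+] is 0.495 and 2.35 CPM for HXT10 beside its own 0.571 and 2.95 CPM.

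All comparisons with naive share its 2 libraries, so [ESI+] was also set against the mean of the 3 deletions. HXT1 was higher in [ESI+] by 1.61 ± 0.19 (adjusted p = 0.000331), HXT4 by 1.86 ± 0.22 (adjusted p = 0.000335), HXT6 by 2.60 ± 0.32 (adjusted p = 0.000843) and HXT7 by 1.11 ± 0.25 (adjusted p = 0.00651). Their summed pair was higher by 1.23 ± 0.24 (adjusted p = 0.00385). HXT1 and HXT6 were higher in both [ESI+] libraries than in any of the 6 deletion libraries. HXT4 and HXT7 in [ESI+] lay above hos2Δ and set3Δ and overlapped snt1Δ. HXT5 (0.71 ± 0.23, adjusted p = 0.0317) and GAL2 (1.03 ± 0.29, adjusted p = 0.0186) also passed. HXT10 is left aside, as it reached the filter through [ESI+] alone. Of the other 9 genes 6 were higher and 0 lower, against 19.2% and 15.9% of all genes, and HXT2, HXT3 and HXT8 did not pass. After subtraction of the silent level HXT5 (adjusted p = 0.113) and GAL2 (adjusted p = 0.148) were lost. With spike-in library sizes HXT5 (1.58, adjusted p = 0.223) and GAL2 (1.815, adjusted p = 0.190) were lost too, beside a median of all genes of 1.10. The calls of HXT1, HXT4, HXT6 and HXT7 held there. With a length trend removed HXT5 was lost (0.45, adjusted p = 0.116). Of the 8 fits without 1 library, HXT7 was lost without [ESI+] replicate 1 (0.66, adjusted p = 0.156), GAL2 without [ESI+] replicate 2 (0.57, adjusted p = 0.334) and set3Δ replicate 1 (0.97, adjusted p = 0.0543), and HXT5 without either [ESI+] library, hos2Δ replicate 1 or set3Δ replicate 1 (0.46 to 0.90, adjusted p 0.0544 to 0.355).

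Sequence before the start codons was scanned for the motifs of the factors named above, on both strands, in the RefSeq R64 genome. The motifs were CGGANNA for Rgt1, 4 forms for Mig1 (GCGGGG, the form GTGGGG, the form CCGGGG and the form CTGGGG) and, for Gal4, CGG and CCG with 11 bases between them. From 250 bases before to 50 after the start codon, an Rgt1 match was present at 2 of the 10 genes and at 26.4% of 5987 genes. A Mig1 match was present at 4 (HXT1 to HXT4) and at 11.7% of genes, and a Gal4 match at 0 and at 1.34%. Over the 1000 bases before the start codon, a window chosen after seeing these values, 3 or more Rgt1 matches stood at 8 of the 10 genes and at 11.2% of 5982 genes. HXT3 had 9, HXT1 8 and HXT8 6, whereas HXT7 had 2 and HXT10 had 0. Mig1 matches numbered 3 or more at 3 of the 10 genes and at 2.89% of all, with 4 each at HXT2 and HXT4. GAL2 held 5 Gal4 matches, and 5 of the 10 genes held any, against 5.68% of genes. Gal4 matches can overlap each other and Rgt1 matches, since both begin or end with the same 3 bases, and a match is a run of letters, not a measured binding site.

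The stretches of 150 bases with the most Rgt1 and Mig1 matches between 1000 and 250 bases before the start codon are shown for 4 of the carriers on which the results above turn; where stretches tied, the nearest to the start codon is shown. They read 5′ to 3′ on the coding strand, with both kinds of match in capitals.
HXT7, chrIV:1156440-1156589: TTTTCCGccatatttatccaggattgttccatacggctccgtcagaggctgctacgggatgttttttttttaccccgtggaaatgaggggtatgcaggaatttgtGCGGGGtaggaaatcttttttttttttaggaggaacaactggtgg
HXT4, chrVIII:289160-289309: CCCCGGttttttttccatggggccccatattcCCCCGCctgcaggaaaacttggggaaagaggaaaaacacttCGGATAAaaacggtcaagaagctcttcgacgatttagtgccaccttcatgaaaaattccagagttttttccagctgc
HXT1, chrVIII:292960-293109: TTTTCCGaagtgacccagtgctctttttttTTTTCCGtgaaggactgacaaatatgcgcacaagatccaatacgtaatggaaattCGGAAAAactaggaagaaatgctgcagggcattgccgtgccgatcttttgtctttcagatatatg
HXT3, chrIV:1164953-1165102: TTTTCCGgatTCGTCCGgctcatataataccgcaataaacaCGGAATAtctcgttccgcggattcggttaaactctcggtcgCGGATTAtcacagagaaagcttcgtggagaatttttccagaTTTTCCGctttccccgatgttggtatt
The HXT1 and HXT3 stretches hold 3 and 5 Rgt1 matches and 0 of Mig1, and those of HXT7 and HXT4 hold 1 Rgt1 match each with 1 and 2 Mig1 matches. This depends on the window, since HXT1, HXT3 and HXT7 each have 2 Mig1 matches over the whole 1000 bases, those of HXT1 and HXT3 within 250 bases of the start codon. At HXT7 a stretch farther away, with both of its Rgt1 matches and no Mig1 match, tied with the one shown. The stretches run from -661 to -512 (HXT7), -498 to -349 (HXT4), -484 to -335 (HXT1) and -442 to -293 (HXT3), counted in bases from the start codon. No test links these letters to the transcript levels.

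**Figure D5:**
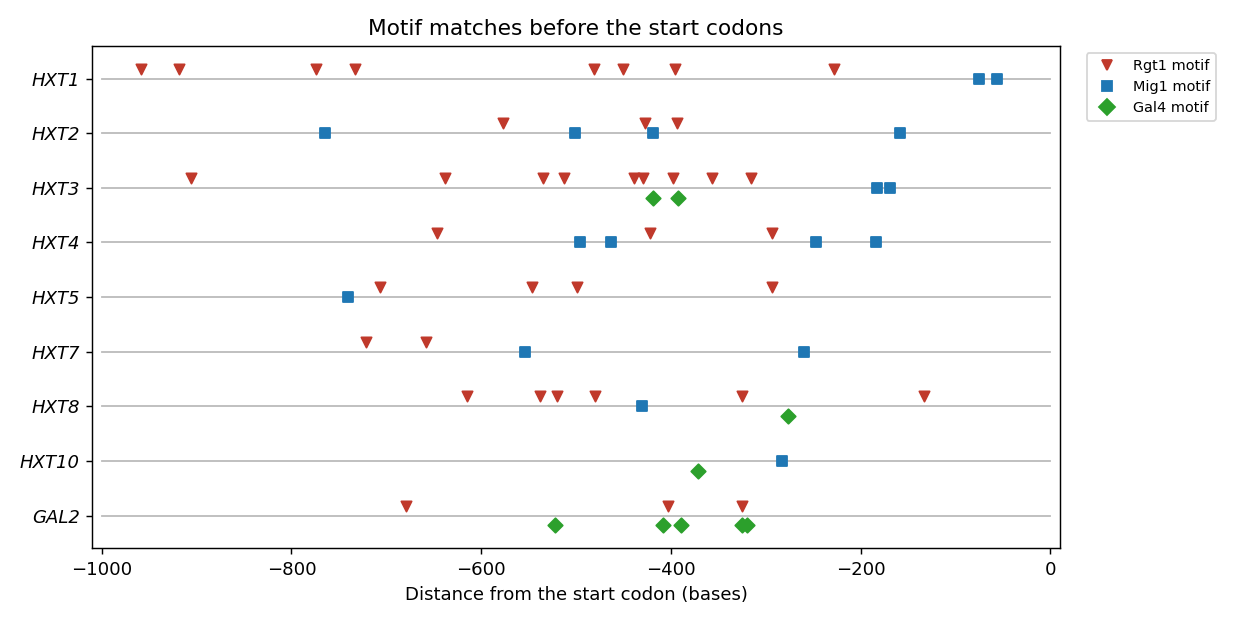
Positions of Rgt1 (triangles), Mig1 (squares) and Gal4 (diamonds) motif matches in the 1000 bases before the start codons of 9 of the 10 genes, with distance from the start codon in bases on the horizontal axis. HXT3 and HXT1 hold 9 and 8 Rgt1 matches, and GAL2 holds 5 Gal4 matches.

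Genes that sense glucose or act in its repression were followed as a list of 17, all tested. Calls of this and the following lists come from the fit to all 10 libraries, with few of the alternatives given for the transporters. With spike-in library sizes 5, 3, 3 and 32 of all 6390 genes passed in hos2Δ, set3Δ, snt1Δ and [ESI+] against naive. The list calls therefore did not all hold there. In hos2Δ 5 were lower and 0 higher (4.69% and 2.96% of all genes), with MTH1, the co-repressor that works with Rgt1, down by 2.50 ± 0.21 (adjusted p = 0.000179). MIG1 fell by 1.12 ± 0.18 (adjusted p = 0.00523), MIG2 by 1.00 ± 0.20 (adjusted p = 0.0144), SNF3, the sensor of low glucose, by 1.01 ± 0.21 (adjusted p = 0.0168) and MIG3 by 1.14 ± 0.27 (adjusted p = 0.0269). In set3Δ 5 were lower and 0 higher (1.92% and 0.579% of all genes), MTH1 by 1.79 ± 0.21 (adjusted p = 0.00148) and the other 4 being MIG1, MIG2, MIG3 and SNF3. In snt1Δ 3 were lower and 0 higher (0.391% and 0.0626% of all genes), MTH1 by 1.52 ± 0.21 (adjusted p = 0.00620), MIG3 by 1.85 ± 0.28 (adjusted p = 0.0134) and MIG2 by 1.19 ± 0.20 (adjusted p = 0.0248). MTH1 itself was at 37.8 and 41.5 CPM in naive, 6.71 and 7.31 CPM in hos2Δ, a mean of 11.4 CPM in set3Δ, and 12.1 and 15.5 CPM in snt1Δ, so that no deletion library overlapped naive.

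In [ESI+] the same list gave 2 higher and 3 lower of 17, close to the 13.9% and 14.5% of all genes, so the counts say nothing particular of the list. GLC7, a protein phosphatase catalytic subunit, rose by 1.21 ± 0.27 (adjusted p = 0.00791) and GRR1, of a ubiquitin ligase, by 0.73 ± 0.19 (adjusted p = 0.0168). MIG2 fell by 1.22 ± 0.20 (adjusted p = 0.00191), MIG1 by 0.78 ± 0.17 (adjusted p = 0.00871) and the general co-repressor TUP1 by 1.08 ± 0.33 (adjusted p = 0.0291). MTH1, at 36.6 and 27.8 CPM, did not pass there (-0.30 ± 0.20, adjusted p = 0.274).

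Of the 4 hexose kinase genes, whose enzymes phosphorylate sugar once it has entered, 3 were lower in hos2Δ (4.69% of all genes), 2 in set3Δ (1.92%), 0 in snt1Δ (0.391%) and 2 in [ESI+] (14.5%), and 0 were higher in any. In snt1Δ, where edgeR called 0, 0 had an unadjusted p under 0.05, DESeq2 called 0, and HXK1 had -0.79 ± 0.40 (adjusted p = 0.589). HXK1, a hexokinase gene with some shared reads, fell by 2.70 ± 0.42 in hos2Δ (adjusted p = 0.00589), by 2.09 ± 0.41 in set3Δ (adjusted p = 0.0266) and by 1.33 ± 0.40 in [ESI+] (adjusted p = 0.0311). EMI2, a putative glucokinase gene, fell by 1.71 ± 0.28 in hos2Δ (adjusted p = 0.00589) and by 1.15 ± 0.27 in set3Δ (adjusted p = 0.0495). GLK1, the glucokinase gene, also with shared reads, fell by 1.49 ± 0.39 in hos2Δ (adjusted p = 0.0419) and by 1.25 ± 0.39 in [ESI+] (adjusted p = 0.0329).

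Of 8 further HXT family genes (HXT9 and HXT11 to HXT17), 6 were tested. HXT16 was listed at 0 counts in every library, and HXT14 did not reach the filter. All 6 tested genes had estimated counts that are not whole, so they share reads with other transcripts and their own levels are uncertain. HXT15 was lower in hos2Δ (-1.58 ± 0.44, adjusted p = 0.0485), at 1.38 and 1.66 CPM against 5.10 and 3.82 CPM in naive, and no other passed in edgeR against naive in any group. Beside these counts of 0, 0 had an unadjusted p under 0.05 in [ESI+], 4 in set3Δ and 2 in snt1Δ, and DESeq2 called 0, 1 and 0. The medians of the 6 were -0.80 in hos2Δ, -1.21 in set3Δ, -0.67 in snt1Δ and 0.15 in [ESI+]. HXT9, HXT13, HXT15 and HXT17 were called higher in [ESI+] than in the mean of the deletions, where 19.2% of all genes were. In [ESI+] libraries 1 and 2 HXT9 was at 1.58 and 3.41 CPM beside a silent level of 0.514 and 2.44 CPM, and HXT13 at 1.26 and 3.80 CPM beside 0.512 and 2.42 CPM. HXT15, at 3.59 and 7.26 CPM, and HXT17, at 2.04 and 3.98 CPM, had the same silent levels as HXT9 and HXT13.

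Among 4675 nuclear genes with a mean of at least 5 CPM, those most like HXT7 over the 10 libraries were HXK1 (Pearson's r of log2(CPM + 1) 0.97), ESBP6 (0.97), EMI2 (0.95), ARO10, for phenylpyruvate decarboxylase (0.95), and the reading frame YFR052C-A (0.95), which shares reads with other targets. HXK1 itself was at 934 and 1008 CPM in naive, 101 and 198 CPM in hos2Δ, 244 and 212 CPM in set3Δ, 756 and 367 CPM in snt1Δ and 485 and 287 CPM in [ESI+]. Within the transporter set HXT4 (0.96) and HXT6 (0.90) were closest to HXT7, and HXT1 was not (0.19). Those most like HXT1 were PHO12, an acid phosphatase gene with shared reads (0.92), ARI1, for a carbonyl reductase (0.91), AST2 (0.91), RGD2, for a GTPase-activating protein (0.90), and BIO2, for biotin synthase (0.89). These r values describe 10 libraries that share 5 group means and library scaling, and they are given without a test.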

How the data were processed

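Each library's deposited table holds expected counts (estimated reads per target, not normalized) and TPM (scaled over all targets, spike-ins included), per the file headers, made with kallisto 0.44 on build R64, per the submitters' processing notes. RNA was primed at the poly(A) tail on beads and cDNA was sheared before adaptor ligation, per the labels' protocols. Whether strand was kept is not stated, so reads of overlapping genes on opposite strands may not be told apart.

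Counts were rounded, and the 92 spike-in targets were set aside. Genes kept by edgeR 4.0.16's filterByExpr (R 4.3.3) were tested by its robust quasi-likelihood fit to all 10 libraries (TMM sizes, 1 coefficient per group), two-sided, with Benjamini-Hochberg adjustment over 6390 genes and a threshold of 0.05. The SE is the log2 fold change over the square root of F. CPM use TMM library sizes. P-values measure the spread between these libraries, which may be technical. Genes were called silent for a group if nuclear, 300 bases or longer and, averaged over the other groups except [ESI+], under 0.2 CPM per kb. Replicate numbers did not pair the libraries (correlations of deviations -0.08 to 0.31).

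The genes and lists, and the alternatives, were chosen with earlier results of these data known. All 10 genes are described. Of the other lists, genes passing against naive are named, at most 6 per list by smallest adjusted p, and likeness names the 5 highest correlations. The haploid and deleted genes served as checks of level. Of these, STE6 (0.93 ± 0.26, adjusted p = 0.0218), HOS2 (0.95 ± 0.31, adjusted p = 0.0379) and SET3 (0.86 ± 0.28, adjusted p = 0.0406) were called higher in [ESI+] than in naive. There 13.9% of all genes were called higher. The motif positions of 1 gene are not reported here. Alternatives were DESeq2 1.42.0, its size factors (RLE) in edgeR, spike-in library sizes, no filter, a mean of at least 10 CPM, only the groups compared, a replicate block, HXT6 and HXT7 summed, subtraction of the silent level, removal of a length trend (loess, span 0.5) and leaving out each library in turn.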

Additional observations from a re-analysis of the deposited data

How the results depend on the processing

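Counts of the 10 genes called, HXT10 included where tested (7 in [ESI+] against the deletions in the fit above), moved by over 1.5 times as follows. With spike-in library sizes they fell to 0 in each comparison with naive and in hos2Δ against snt1Δ, where 3 to 32 of all 6390 genes passed. DESeq2 gave 3 in snt1Δ against naive, 1 in hos2Δ against set3Δ and 3 in set3Δ against snt1Δ. The replicate block, on numbers that do not pair the libraries, gave 3 in snt1Δ against naive and 3 in set3Δ against snt1Δ, and over all genes it called 2335, 848, 403 and 59 in [ESI+], hos2Δ, set3Δ and snt1Δ against naive, where 1810, 489, 160 and 29 passed without it. The block also brought HXT6 in [ESI+] past the threshold (-0.82, adjusted p = 0.00971). Fits of only the groups compared gave 0 in snt1Δ against naive and 0 in hos2Δ against snt1Δ, where 6 of 6074 and 1 of 6095 genes passed. A mean of at least 10 CPM gave 1 in [ESI+] against naive and 2 in set3Δ against snt1Δ. Subtraction of the silent level gave 1 in [ESI+] against naive and 4 in [ESI+] against the deletions, and removal of the length trend gave 1 in [ESI+] against naive. Without 1 library the counts ran from 0 to 3 in [ESI+], 3 to 5 in hos2Δ, 0 to 4 in set3Δ and 1 to 2 in snt1Δ against naive, from 0 to 3 in hos2Δ against snt1Δ, 0 to 2 in set3Δ against snt1Δ and 4 to 7 in [ESI+] against the deletions. Such fits have fewer samples, and the cause of the other shifts was not tested. Motif matches were present at 1 gene for Rgt1 in 200 bases, and at 9 for Rgt1, 9 for Mig1 and 5 for Gal4 in 1000 bases. A share of summed TPM without 1 library is that of the other library, and some lay over 1.5 times apart, such as HXT7 in hos2Δ (5.21% and 8.50%), HXT1 in snt1Δ (0.993% and 1.84%) and HXT10 in [ESI+] (0.0191% and 0.125%).

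Log2 fold changes that changed sign were all of differences that did not pass. Against naive, HXT1 in [ESI+] was -0.027 with DESeq2, -0.027 with RLE and -0.16 with the length trend removed. HXT2 in [ESI+] was 0.074 at a mean of at least 10 CPM and 0.079 with the silent level subtracted, and HXT8 in [ESI+] was -0.41 there. HXT2 in snt1Δ was 0.019 with DESeq2, 0.019 with RLE and 0.041 with the length trend removed. With spike-in library sizes HXT2, HXT3, HXT4, HXT5 and HXT6 in [ESI+] were 0.69, 0.41, 0.40, 0.46 and 0.11, all below the median of all genes there, HXT8 was -0.19 in set3Δ and -0.50 in snt1Δ, and HXT6 was 0.051 in hos2Δ against set3Δ. Without 1 library HXT1 in [ESI+] ran from -0.21 to 0.25, HXT5 in [ESI+] from -0.33 to 0.10, HXT8 in [ESI+] from -0.13 to 0.83, HXT8 in set3Δ from -0.16 to 0.62, HXT2 in snt1Δ from -0.40 to 0.31, HXT8 in snt1Δ from -0.21 to 0.60 and GAL2 in snt1Δ from -0.34 to 0.075.

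At 2 libraries a group and as few as 8327735 expected counts, differences of HXT10, with 1 to 11 counts in libraries other than [ESI+], were not resolved.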
